A study of Homo sapiens with 9 samples.

Results

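The Arp2/3 complex subunits described here are 9 genes of a deposited table of read counts for 60448 gene identifiers. They are ARPC1A, ARPC1B, ARPC2, ARPC3, ARPC4, ARPC5, ARPC5L, ACTR2 and ACTR3, taken as the table entries whose Ensembl identifiers map to these symbols. All 9 passed the filter on low counts, which left 15019 genes to test. ARPC3 was the starting point of the choice because its level was higher in both OPA1 knock-downs, so its differences from control are given as a description with no test. The other 8 genes complete the complex. The data are RNA sequencing libraries of cells labelled Huh7, a human hepatocellular carcinoma line grown in DMEM, with 3 control libraries and 3 libraries of each of the OPA1 knock-down sets N_28 and N_30. OPA1 was knocked down with lentivirus, and the treatment text is the same for control libraries, so what the control cells received is not stated apart from their label. The sources used here do not give the meaning of N_28 and N_30, the time after infection or the number of separate cultures. The spread behind every p-value is therefore that among these libraries and may be only technical.

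The Arp2/3 complex starts new actin filaments as branches on the sides of existing ones. ACTR2 and ACTR3 encode the actin-related proteins Arp2 and Arp3, which mimic the first actin monomers of the branch, and the ARPC genes encode the other subunits that hold them and bind the mother filament. The complex is nearly inactive alone and is switched on by nucleation-promoting factors of the WASP, WAVE and WASH families, at the cell edge, on endosomes and at other membranes, and human cells carry paralogs for some subunits (ARPC1A and ARPC1B, ARPC5 and ARPC5L, ACTR3 and ACTR3B).

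Total counts per library ran from 16476389 to 22863328, and 3 counts in the shallowest library come to 0.182 CPM (counts scaled to library size), a floor for counting error only. The targeted gene OPA1, a GTPase of the inner mitochondrial membrane, stood at 88.7 ± 5.28 CPM (SD, n = 3) in control, 55.6 ± 2.25 in N_28 and 64.5 ± 1.30 in N_30, and no knock-down library reached the lowest control library. The labelled cell type was not borne out by hepatocyte markers in any group. APOB had 0 counts in every library, ALB at most 10, HNF4A at most 4 and AFP 12 to 26, and the 7 markers of the hepatocyte list summed to between 1.18 and 3.85 CPM. The keratin KRT8 stood at 411 CPM and the filament VIM at 1493 CPM in control. In a principal component analysis the libraries numbered 3 of every group stood apart from the others on component 2 (13.9% of the variance), so calls were also made without them.

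Upstream sequence is shown for ARPC3, from which the choice started, for ARPC5, which was called lower in N_28, and for its paralog ARPC5L, whose course over the libraries was the most like that of ARPC3 among the other subunits. Each run is the 250 bases before the RefSeq start of transcription on GRCh38.p14, written 5′ to 3′ on the gene's strand, at chr12:110450338-110450587 (minus) for ARPC3, chr1:183635784-183636033 (minus) for ARPC5 and chr9:124861880-124862129 (plus) for ARPC5L. Capitals mark matches to CCGGAAG (the ETS core), CCAAT (the CCAAT box) and GGGCGG (the GC box, here read as CCGCCC from the other strand).
ARPC3: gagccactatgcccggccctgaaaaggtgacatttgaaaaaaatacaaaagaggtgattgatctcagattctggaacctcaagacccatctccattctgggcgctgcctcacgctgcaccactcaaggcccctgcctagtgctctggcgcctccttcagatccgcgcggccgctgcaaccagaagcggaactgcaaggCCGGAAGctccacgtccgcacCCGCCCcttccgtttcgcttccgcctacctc
ARPC5: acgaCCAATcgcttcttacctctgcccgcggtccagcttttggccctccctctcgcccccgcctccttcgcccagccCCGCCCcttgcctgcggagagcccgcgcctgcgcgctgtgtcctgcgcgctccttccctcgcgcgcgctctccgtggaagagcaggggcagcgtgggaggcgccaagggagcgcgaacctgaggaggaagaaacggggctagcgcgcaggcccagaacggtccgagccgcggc
ARPC5L: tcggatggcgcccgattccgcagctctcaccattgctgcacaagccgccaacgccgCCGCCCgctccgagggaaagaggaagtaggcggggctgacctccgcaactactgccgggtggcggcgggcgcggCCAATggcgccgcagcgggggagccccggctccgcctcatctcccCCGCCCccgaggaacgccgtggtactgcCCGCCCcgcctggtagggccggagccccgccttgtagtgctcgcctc
The ARPC3 window held the ETS core at -52 to -46, counted back from the RefSeq start of transcription, and a GC box at -31 to -26. The GENCODE span of ARPC3 ends at 110450422, which lies inside this window. Both matches therefore fall within the gene as GENCODE gives it, and are upstream only of the RefSeq start. Windows of ARPC2, ARPC4, ACTR2 and ACTR3 also reach into the GENCODE spans of those genes. The ARPC5 window held a CCAAT box and a GC box, and the ARPC5L window a CCAAT box and 3 GC boxes. RefSeq windows were matched for 8 of the 9 members, with ARPC1B the one without. These genes have 11 windows, 3 of them for ACTR3 and 2 for ARPC2, which overlap in part. The ETS core was in 3 of the 11 windows (ARPC1A, ARPC3 and ACTR2), the CCAAT box in 4 (ARPC1A, ARPC5, ARPC5L and ACTR2) and the GC box in 9, all but that of ARPC1A and 1 of ACTR3. Both ARPC2 windows hold the same GC box, at -17 to -12 in the one and -225 to -220 in the other, so it is counted in both. Among 35116 RefSeq windows of the same length, 8.52% held the ETS core, 32.0% the CCAAT box and 42.6% the GC box, with both strands searched. No member's window held TATAAA (10.7% of all windows), CACGTG (6.35%), the CArG box (1.16%) or the AP-1 site (4.20%). Such a match is a run of letters and not a measured binding site.

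Every subunit was well expressed in control cells. Per kilobase of annotated exon, which makes genes of unlike length comparable, ACTR2 had the highest level at 99.5 ± 5.21 CPM per kilobase (SD, n = 3), followed by ARPC1A at 74.1 ± 0.996, ARPC2 at 48.3 ± 1.22 and ACTR3 at 32.7 ± 2.56. ARPC3 at 25.7 ± 1.31 and ARPC5 at 24.4 ± 0.764 overlapped, and ARPC5L at 18.3 ± 1.15, ARPC1B at 15.1 ± 0.908 and ARPC4 at 13.2 ± 0.423 came last. All other neighbours in this order were further apart than their control libraries spread. Among 14918 tested genes with a length, the subunits lay between the percentile 75.9 (ARPC4) and 97.5 (ACTR2).

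The order depends on the length used. Against the longest principal transcript, ARPC2 came first at 198 ± 4.98 CPM per kilobase, then ACTR2 at 112 ± 5.86, ARPC1A at 97.2 ± 1.31, ARPC3 at 76.6 ± 3.90 and ACTR3 at 58.6 ± 4.59. ARPC5 at 36.0 ± 1.13 and ARPC1B at 35.1 ± 2.11 then overlapped, above ARPC5L at 26.4 ± 1.66 and ARPC4 at 18.5 ± 0.592. ARPC4, a core subunit, was lowest by both lengths, and ARPC3 moved from the fifth to the fourth place. The annotated exons cover 6562 bases for ARPC2, 10624 for ARPC5 and 12049 for ACTR3, against 2053 for ARPC1A and 3025 for ARPC3.

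**Figure D1:**
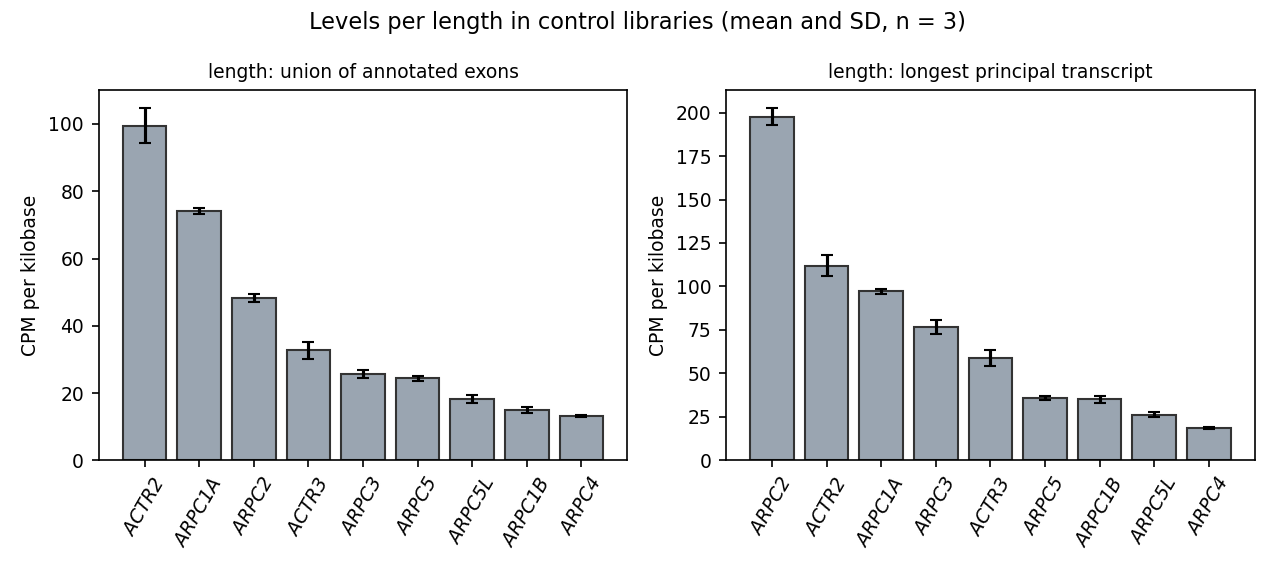
Bars give the mean level of each subunit in the 3 control libraries in CPM per kilobase (error bars, SD), by union exon length on the left and by principal transcript length on the right. ARPC2 is the third highest on the left and the highest on the right, ACTR2 the highest on the left and next to ARPC2 on the right, and ARPC4 is lowest in both panels.

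Together the 9 genes took a like small part of the counts in all groups. Their share of all counts was 0.181% in control (range 0.174% to 0.188%), 0.177% in N_28 (range 0.173% to 0.181%) and 0.185% in N_30 (range 0.178% to 0.188%). These ranges overlap. In bulk RNA, fewer cells of a type and less RNA per cell cannot be told apart.

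ARPC3 encodes the small p21 subunit that joins the Arp3 side of the complex. Its gene (ENSG00000111229) lies on the minus strand of chromosome 12 from 110434825 to 110450422 (GENCODE release 29, GRCh38). In control libraries ARPC3 stood at 73.5, 81.3 and 78.3 CPM (mean 77.7 ± 3.95, n = 3). In N_28 it stood at 92.9, 94.3 and 89.5 CPM (92.2 ± 2.49) and in N_30 at 92.4, 99.1 and 90.8 CPM (94.1 ± 4.38). All 6 knock-down libraries lay above all 3 control libraries, and the knock-down sets overlapped each other. This separation is what ARPC3 was chosen for, so nothing is read from the 1.53% of all genes that share it. The difference from control was 0.25 on the log2 scale in N_28 and 0.28 in N_30, with the 3 control libraries shared by both. Within the complex, ARPC3 made up 4.30% ± 0.0950 of the member counts in control, 5.18% ± 0.0947 in N_28 and 5.10% ± 0.124 in N_30.

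The comparison that leaves the controls out did not separate the knock-downs. ARPC3 in N_30 was 0.03 above N_28 on the log2 scale (SE 0.06, 95% interval -0.10 to 0.16), with a Benjamini-Hochberg adjusted p of 0.781 in edgeR's quasi-likelihood test, which is used throughout. Its sign turned without N_30 library 2, to -0.01.

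**Figure D2:**
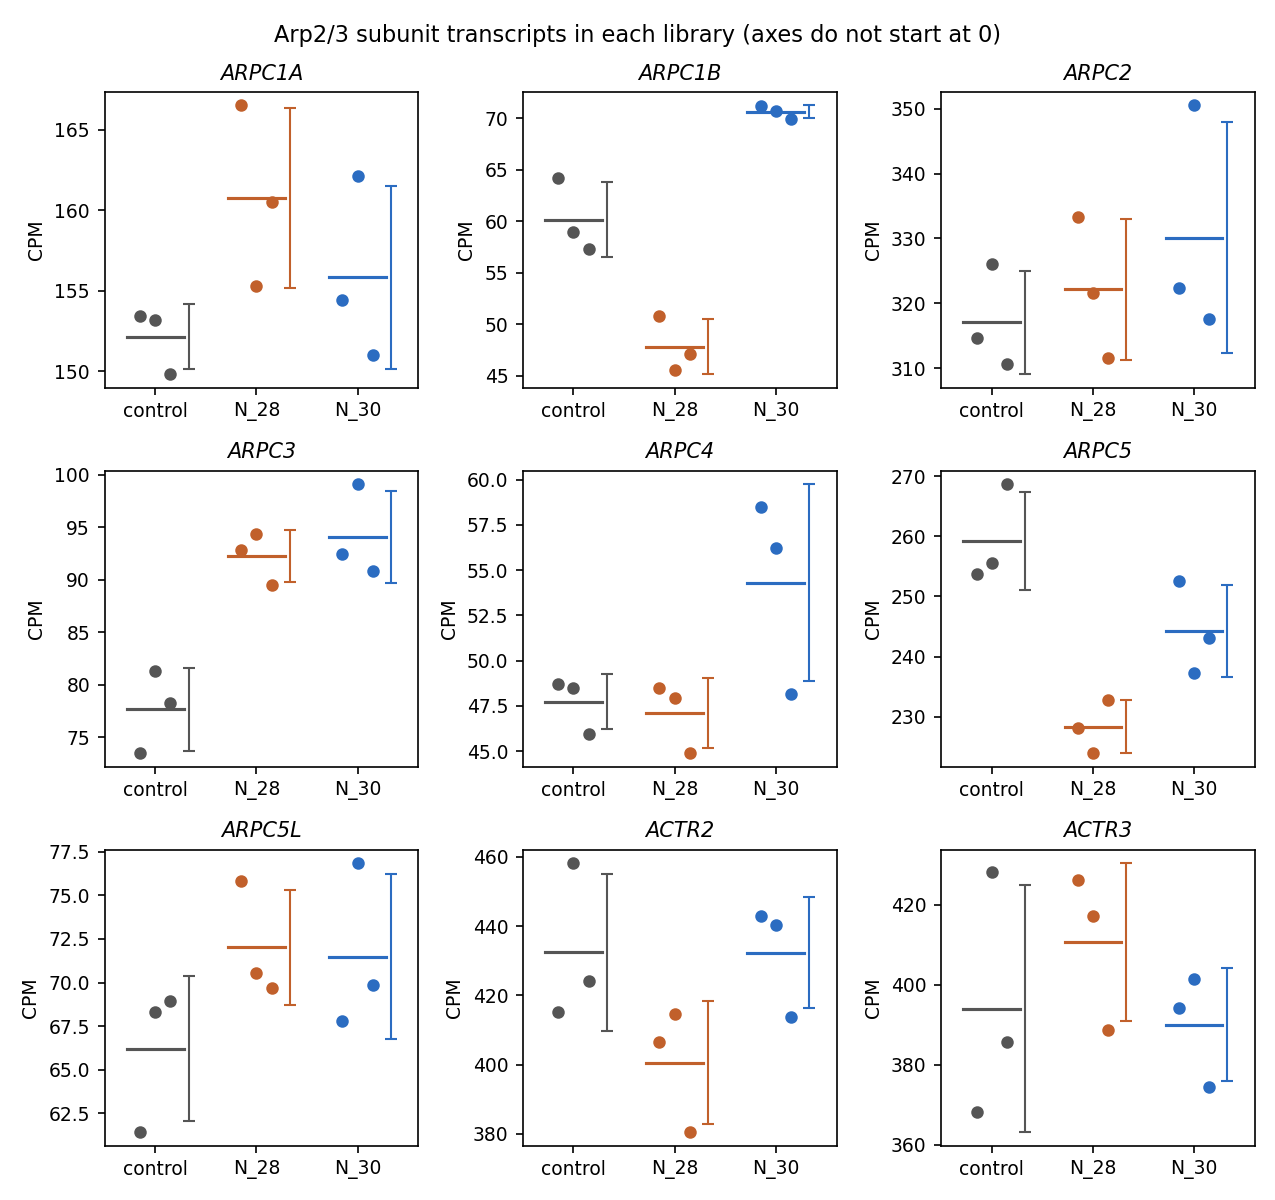
Each panel plots one subunit's level in CPM in the 9 libraries, with a line at the group mean and a bar of 1 SD (n = 3), on axes that do not start at 0. ARPC3 libraries of both knock-downs lie above control, while ARPC1B lies below control in N_28 and above it in N_30.

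Of the 8 other subunits, 0 passed the test as higher than control in either knock-down with group as the sole factor. In N_28, 0 of the 8 passed as higher and 2 as lower, against a background of 10.2% of all 15019 genes called in this comparison (4.49% higher, 5.75% lower). Their median log2 difference was 0.00, as it was over all genes (-0.00). In N_30, 0 of the 8 passed in either direction, in edgeR and in DESeq2, where edgeR called 0.866% of all genes (0.459% higher, 0.406% lower). Of these 8, 2 had an unadjusted p under 0.05 in N_30 (ARPC1B and ARPC4), and the median difference was 0.05. These N_30 counts leave out the library number, though deviations of same-numbered control and N_30 libraries correlated at 0.158 to 0.562. The labels do not say whether libraries are paired by number. With the library number as a block, edgeR called 1 of the 8 higher in N_30 (ARPC1B). It then called 424 of all genes in N_30, against 130 without the block. The mean of both knock-downs called 0 of the 8 by edgeR and by DESeq2 (1 with an unadjusted p under 0.05, ARPC5), beside 1.78% of all genes (0.533% higher, 1.25% lower). Leaving out ARPC3, libraries did not overlap with control for 5 of the 8 subunits in N_28, 2 above and 3 below, where 14.2% and 14.6% of all genes do so. In N_30 this held for ARPC1B above and ARPC5 below, where these shares are 7.53% and 7.64%. Between the knock-downs, ARPC1B and ARPC5 had all N_30 libraries above all N_28 libraries (18.4% of all genes do), and 0 subunits had them all below (18.1% do).

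ARPC1B had the largest difference of the 9 subunits in N_28 against control and in N_30 against N_28. ARPC1A and ARPC1B encode alternative forms of the p40 subunit, a beta-propeller that touches the mother filament and the activating factors, and ARPC1B is the form that leukocytes and platelets rely on. ARPC1B (ENSG00000130429, chromosome 7, 99374249 to 99394816, plus strand) stood at 64.2, 59.0 and 57.3 CPM in control. In N_28 its levels were 50.8, 45.6 and 47.1 CPM, and in N_30 they were 71.2, 70.7 and 69.9 CPM. The 3 groups did not overlap, with N_28 lowest, control between and N_30 highest. From a control mean of 60.1 ± 3.62 CPM (n = 3), ARPC1B fell to 47.8 ± 2.67 in N_28, a log2 fold change of -0.33 (SE 0.06, 95% interval -0.47 to -0.19, adjusted p = 0.00397 by edgeR). In N_30 the mean was 70.6 ± 0.625 CPM, 0.23 above control on the log2 scale (SE 0.06, interval 0.10 to 0.37), and this did not pass (edgeR adjusted p = 0.127). With the library number as a block, the same difference passed (adjusted p = 0.0332 by edgeR).

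Set directly against each other, N_30 exceeded N_28 by 0.56 on the log2 scale (SE 0.06, interval 0.43 to 0.70), or 1.48-fold, with an edgeR adjusted p of 3.81e-05. ARPC1B was the 1 subunit of 9 called in that comparison, where 18.3% of all genes were called. Both this difference and the fall in N_28 were called in all 13 alternative settings. OPA1 itself was also higher in N_30 than in N_28, by 0.21 (adjusted p = 0.0265, edgeR), a call lost without N_28 library 1 or 2 or any 1 of the N_30 libraries (0.19 to 0.23). The summed level of the 4 epithelial markers had the same order of groups, at 386 to 430 CPM in N_28, 469 to 543 CPM in control and 570 to 602 CPM in N_30. KRT8 makes up most of that sum (317, 411 and 479 CPM), while CDH1 means had the opposite order (1.97, 1.72 and 1.31 CPM) and EPCAM had no more than 6 counts. The sum of the 6 leukocyte markers was 6.27 to 7.12 CPM in N_28, 5.77 to 6.06 CPM in control and 5.12 to 5.70 CPM in N_30. CORO1A makes up most of it (5.42, 4.73 and 4.16 CPM), WAS was highest in N_30 (1.05 CPM) and CD68 had no more than 1 count. The hepatocyte sums were 1.18 to 1.59 CPM in N_28, 1.38 to 2.30 CPM in control and 2.52 to 3.85 CPM in N_30, and the 3 endothelial markers summed to 2.14 to 2.70 CPM in N_28, above both other groups (1.22 to 1.99 CPM). PECAM1 makes up most of the endothelial sum (2.33, 1.33 and 1.49 CPM in N_28, control and N_30), and CDH5 had no more than 4 counts and VWF no more than 3. The 5 mesenchymal markers summed to 2031 to 2125 CPM in N_28, below control (2153 to 2254 CPM) and N_30 (2165 to 2283 CPM). VIM makes up most of that sum, with means of 1420, 1493 and 1447 CPM in N_28, control and N_30. In the same order of groups COL1A1 had 50.9, 71.7 and 127 CPM and COL1A2 had 609, 653 and 668 CPM. DCN had no more than 2 counts and PDGFRB no more than 7. The part of any marker list in the ARPC1B result was not tested.

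ARPC1A, next to ARPC1B on the same strand (ENSG00000241685, chromosome 7, 99325910 to 99366262), stayed close to control. Its levels were 153, 153 and 149.8 CPM in control, 167, 155 and 161 in N_28 and 154, 162 and 151 in N_30. All N_28 libraries lay above control, by 0.08 on the log2 scale (interval -0.04 to 0.19, adjusted p = 0.404 by edgeR), and N_30 overlapped control (0.03, adjusted p = 0.878). The protein-coding gene PDAP1 overlaps ARPC1B on the opposite strand at 322 CPM, and the sources used here do not say whether counting used strand. PDAP1 was 0.19 above control in N_28 (adjusted p = 0.0834) and 0.20 above it in N_30 (adjusted p = 0.191, edgeR), and differed by 0.02 between the knock-downs (adjusted p = 0.883). Among the 10 nearest tested genes of ARPC1B, edgeR called 0 higher and 1 lower (SMURF1) in N_28, where 4.49% and 5.75% of all genes were. In N_30 it called 0, where 0.866% of all genes were called, as did DESeq2, with 2 at an unadjusted p under 0.05.

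The balance of the p40 paralogs followed. ARPC1A made up 71.7% ± 1.03 of the ARPC1A and ARPC1B counts in control, 77.1% ± 0.393 in N_28 and 68.8% ± 0.720 in N_30 (SD, n = 3), a measure that needs no scaling between libraries. The groups did not overlap. A two-sided exact permutation test gave p = 0.1 for each of the 3 pairs of groups (adjusted p = 0.18 over 9 tests), and 0.1 is the smallest value that 3 against 3 allows.

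**Figure D3:**
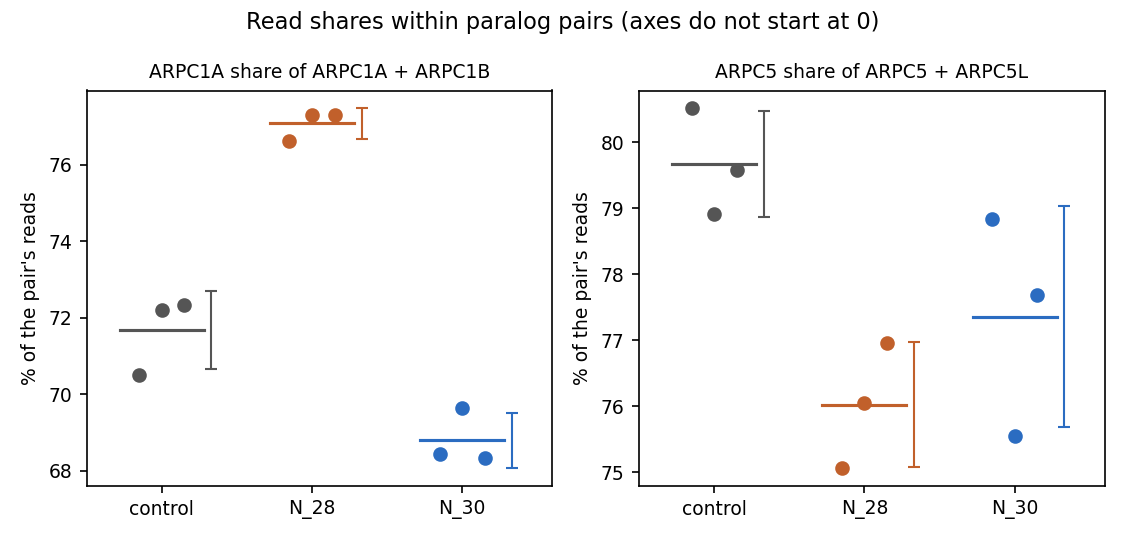
Points give, per library, ARPC1A as a percentage of ARPC1A and ARPC1B reads (left) and ARPC5 as a percentage of ARPC5 and ARPC5L reads (right), with group mean and SD (n = 3), on axes that do not start at 0. The ARPC1A share separates all 3 groups. The ARPC5 share separates control from both knock-downs, which overlap, though N_30 library 1 (78.84%) lies close to control library 2 (78.91%).

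ARPC5 and ARPC5L encode alternative forms of the smallest subunit, p16, which ties ARPC1 to the rest of the complex. ARPC5 (ENSG00000162704, chromosome 1, 183620846 to 183635757, minus strand) had levels of 254, 256 and 269 CPM in control, 228, 224 and 233 in N_28, and 253, 237 and 243 in N_30. Every knock-down library lay below every control library, as for 1.68% of all genes, and N_30 lay between the other groups. ARPC5 fell in N_28 from 259 ± 8.11 to 228 ± 4.37 CPM (n = 3 each), by 0.18 on the log2 scale (SE 0.05, interval -0.30 to -0.07, adjusted p = 0.0399 by edgeR). This call was lost in 8 of 13 alternatives, among them the removal of any 1 of the 6 libraries compared (edgeR adjusted p = 0.0524 to 0.149) and of all libraries numbered 3 (adjusted p = 0.177). In N_30 the difference was -0.09 (adjusted p = 0.580) and in the mean of the knock-downs -0.13 (adjusted p = 0.196), both without a call.

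ARPC5L (ENSG00000136950, chromosome 9, 124862130 to 124877733, plus strand) leaned the other way. Its levels were 61.4, 68.3 and 68.9 CPM in control, 75.8, 70.6 and 69.7 in N_28 and 67.8, 76.8 and 69.9 in N_30. N_28 libraries all lay above control and N_30 libraries overlapped it. The differences of 0.12 in N_28 (interval -0.03 to 0.27, adjusted p = 0.309) and 0.11 in N_30 (interval -0.04 to 0.26, adjusted p = 0.587) did not pass by edgeR. ARPC5 made up 79.7% ± 0.805 of the counts of this pair in control, 76.0% ± 0.946 in N_28 and 77.4% ± 1.67 in N_30. Both knock-downs lay below control without overlap, with a two-sided exact permutation p of 0.1 each (adjusted p = 0.18), and overlapped each other (exact p = 0.3, adjusted p = 0.45). For N_30 the margin was narrow, with N_30 library 1 at 78.84% and control library 2 at 78.91%.

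ARPC2 and ARPC4 form the structural core that holds the other subunits on the mother filament. ARPC2 (ENSG00000163466, chromosome 2, 218217094 to 218254356, plus strand) had levels of 315, 326 and 311 CPM in control, 333, 322 and 312 in N_28 and 322, 350.5 and 318 in N_30. All 3 groups overlapped, with differences of 0.02 in N_28 (interval -0.10 to 0.14, adjusted p = 0.857) and 0.06 in N_30 (interval -0.06 to 0.18, adjusted p = 0.762, edgeR). ARPC4 (ENSG00000241553, chromosome 3, 9792495 to 9807726, plus strand) had levels of 48.7, 48.5 and 46.0 CPM in control, 48.5, 47.9 and 44.9 in N_28 and 58.5, 56.3 and 48.2 in N_30. Its N_30 libraries 1 and 2 lay above all control and N_28 libraries, and N_30 library 3 lay among them.

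ARPC4 in N_30 was 0.18 above control (interval 0.03 to 0.34, adjusted p = 0.343) and 0.20 above N_28 (interval 0.04 to 0.36, adjusted p = 0.0723), neither of which passed by edgeR. The difference between the knock-downs passed without N_30 library 3 (0.28, adjusted p = 0.0118), without all libraries numbered 3 (adjusted p = 0.0443) and with the library number as a block (adjusted p = 0.0216). TADA3, a subunit of histone acetyltransferase complexes, overlaps ARPC4 on the opposite strand at 62.9 CPM. It fell by 0.25 in N_28 (adjusted p = 0.0151, not called without control library 1 or without N_28 library 2 or 3) and was 0.33 higher in N_30 than in N_28 (adjusted p = 0.00153, edgeR). Its part in the ARPC4 counts was not tested.

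The actin-like subunits ACTR2 and ACTR3 showed no called difference. ACTR2 (ENSG00000138071, chromosome 2, 65227753 to 65271253, plus strand) had levels of 415, 458 and 424 CPM in control, 407, 415 and 381 in N_28 and 443, 440.4 and 414 in N_30. N_28 libraries lay below control by 0.11 (interval -0.24 to 0.02, adjusted p = 0.282), and N_30 overlapped control with a difference of -0.00 (interval -0.13 to 0.13, adjusted p = 0.999, edgeR). ACTR3 (ENSG00000115091, chromosome 2, 113889960 to 113962596, plus strand) had levels of 368, 428 and 386 CPM in control, 426, 417 and 389 in N_28 and 394, 401.5 and 374 in N_30. Its groups overlapped throughout, with differences of 0.06 in N_28 (interval -0.08 to 0.20, adjusted p = 0.642) and -0.01 in N_30 (interval -0.15 to 0.13, adjusted p = 0.965, edgeR).

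Other copies of the subunit genes held few reads. The paralog ACTR3B had 163 to 210 counts per library, and ACTR3 made up 97.7% ± 0.393 of the ACTR3 and ACTR3B counts in control, 97.8% ± 0.0553 in N_28 and 97.8% ± 0.249 in N_30 (two-sided exact permutation p of 0.7 to 1). ACTR3C had 24 to 56 counts. The other 21 related entries, pseudogenes, an antisense gene and a read-through gene, had at most 6 counts in any library. The sources used here do not say how reads that match several copies were counted.

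**Figure D4:**
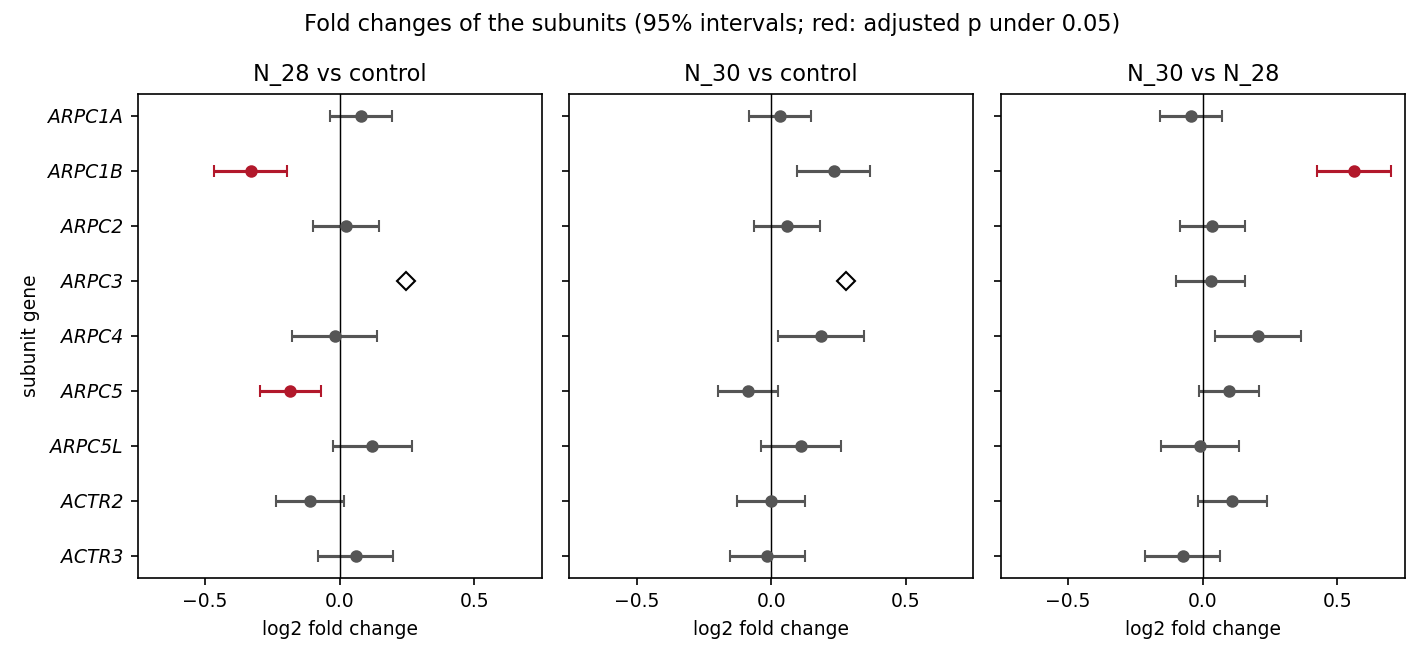
Points give the log2 fold change of each subunit in 3 comparisons, with 95% intervals from the edgeR fit, red where the adjusted p was under 0.05. ARPC3 against control is an open symbol with no interval, since it was chosen on that difference. ARPC1B lies at -0.33, 0.23 and 0.56 in turn, the last being the largest difference of the 9 subunits.

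The genes whose course over the 9 libraries was most like that of ARPC3 were ranked among the 10680 genes whose mean reached 5 CPM. The measure was the root mean square difference in log2 CPM after centring each gene on its own mean. CPOX, an enzyme of haem synthesis, and NPEPPS, a cytosolic aminopeptidase, came first at 0.0492 each. COX7C, a subunit of cytochrome c oxidase, followed at 0.0494, the cap-binding protein gene EIF4E2 at 0.0582 and CACUL1 at 0.0593. COX7C had 143 ± 6.56 CPM in control, 177 ± 2.47 in N_28 and 181 ± 6.73 in N_30 (n = 3), and NPEPPS had 95.8 ± 4.72, 116 ± 2.98 and 116 ± 1.29. Of the other subunits, ARPC5L ranked highest at place 53 (0.0820), then ARPC2 at 472 and ARPC1A at 603. ARPC5 at place 7014 and ARPC1B at 9394 (0.278) were the least like ARPC3. This likeness is a description over libraries that include those ARPC3 was chosen on. The 10 nearest tested genes of ARPC3 on chromosome 12 had 0 calls in any comparison by edgeR or DESeq2 (1 in N_28 and 0 in N_30 at an unadjusted p under 0.05 by edgeR), with a median difference of -0.01 in N_28 and 0.03 in N_30. Of all genes, edgeR called 10.2% in N_28, 0.866% in N_30, 1.78% in the mean of the knock-downs and 18.3% between the knock-downs.

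The genes that act on the complex were read from 8 lists of 81 genes, 75 of them tested. In N_28, 2 of the 75 rose and 8 fell by edgeR, with a median difference of -0.02, next to the background shares of 4.49% and 5.75% given above. DESeq2 called 12 in N_28, adding WASF2 and FHOD1, which lay above control by 0.17 and 0.19 in edgeR. In N_30, 1 rose and 0 fell by edgeR, where 0.459% and 0.406% of all genes did, with a median of -0.03. There 14 had an unadjusted p under 0.05, and DESeq2 called 2. Between the knock-downs, 9 were higher in N_30 and 11 lower, where 9.38% and 8.96% of all genes were.

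Among 12 tested activators, 1 fell in N_28 by edgeR, where 5.75% of all genes did, and DESeq2 also called WASF2. In N_30, 0 passed by edgeR or DESeq2 (2 at an unadjusted p under 0.05). JMY, a nucleation-promoting factor that also binds p300, fell from 14.9 ± 2.39 to 10.9 ± 1.32 CPM (n = 3), a log2 fold change of -0.45 (edgeR adjusted p = 0.0448). That call was lost in 5 of 13 alternatives, without control library 1 or 2, without N_28 library 1 or 3, and with N_30 left out of the model. N-WASP (WASL) stood at 58.9 ± 1.26 CPM in control and differed by -0.02 in each knock-down, and cortactin (CTTN), which stabilises branches, differed by 0.06 in N_28 and 0.03 in N_30. None of these 4 differences passed. Of 6 WAVE complex genes, 0 passed in N_28 or N_30 by edgeR or DESeq2 (1 in each at an unadjusted p under 0.05), with medians of -0.04 and -0.05. The share of all genes called by edgeR was 10.2% in N_28 and 0.866% in N_30.

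The WASH complex drives Arp2/3 on endosomes, and 2 of its 6 genes fell in N_28, where 5.75% of all genes did. WASHC2A fell by 0.24 (adjusted p = 0.0265) and WASHC2C by 0.21 (adjusted p = 0.0227, edgeR), from 123 ± 4.80 to 104 ± 6.59 CPM and from 91.4 ± 2.46 to 78.8 ± 3.17 CPM (n = 3). These are near-identical copies that encode the FAM21 subunit, and their reads may be split between them, so the 2 calls may not be separate observations. In N_30 both lay above control, by 0.16 and 0.15, without passing. N_30 exceeded N_28 by 0.40 for WASHC2A (adjusted p = 0.000647) and by 0.36 for WASHC2C (adjusted p = 0.000406, edgeR). The calls in N_28 were lost in 5 of 13 alternatives for WASHC2A and in 6 for WASHC2C, including without control library 1 and without N_28 library 2 or 3 for both, without control library 2 for WASHC2A and without control library 3 for WASHC2C.

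Among 9 tested inhibitors and debranching factors, 1 rose and 1 fell in N_28, with a median of 0.12, where 4.49% and 5.75% of all genes did. The coronin CORO2B rose from 21.5 ± 1.36 to 36.1 ± 1.31 CPM (n = 3), a log2 fold change of 0.75 (adjusted p = 0.000545), and stood at 18.1 ± 3.31 in N_30. ARPIN, an inhibitor of the complex at the cell edge, fell from 18.6 ± 0.568 to 14.1 ± 0.749 CPM, by 0.40 (adjusted p = 0.00862, edgeR), and stood at 19.0 ± 1.42 in N_30. Both calls held in all 13 alternatives. CORO1B, which displaces the complex from branches, differed by 0.12 in N_28 and 0.05 in N_30 without passing.

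No gene passed against control in N_28 or N_30 among 14 actins and monomer-binding proteins and 6 capping proteins. Of these 20 genes, 0 were called by edgeR or by DESeq2, and 4 in N_28 and 3 in N_30 had an unadjusted p under 0.05. Of all genes, edgeR called 10.2% in N_28 and 0.866% in N_30. Beta-actin (ACTB) stood at 6700 ± 217 CPM in control (n = 3) and differed by -0.03 in N_28 and 0.05 in N_30. Cofilin (CFL1) differed by -0.06 and 0.05, and the capping protein CAPZB by -0.12 and 0.03.

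Of the 15 tested nucleators that make unbranched filaments, N_28 had 1 that rose and 3 that fell, and N_30 had 1 that rose. DAAM2 fell from 16.8 ± 1.54 to 5.96 ± 1.63 CPM in N_28 (n = 3), a log2 fold change of -1.48 (edgeR adjusted p = 5.86e-05), and stood at 17.9 ± 2.48 in N_30. It was the 1 gene of all lists called in the mean of the knock-downs (-0.70, adjusted p = 0.0139, edgeR), where 1.78% of all genes were called. That call was lost without control library 3 (-0.63, adjusted p = 0.0746, edgeR). It rests on the fall in N_28, as DAAM2 differed from control by 0.09 in N_30. FHOD3, a formin of muscle sarcomeres, fell from 3.23 ± 0.187 to 1.09 ± 0.267 CPM in N_28, a log2 fold change of -1.55 (adjusted p = 0.000445). In N_30 it rose to 5.73 ± 0.989 CPM, by 0.82 (adjusted p = 0.0498, edgeR), a call kept in 5 of 13 alternatives and lost without any 1 of the control libraries or of N_30 libraries 1 and 2. DAAM1 fell by 0.44 in N_28 (adjusted p = 0.0348), a call kept in 7 of 13 alternatives and lost without control library 2 or 3 or N_28 library 1 or 3. INF2, a formin of the endoplasmic reticulum that acts in mitochondrial division, rose from 354 ± 26.6 to 446 ± 14.0 CPM in N_28, by 0.33 (adjusted p = 0.00285, edgeR), and differed by -0.04 in N_30.

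Of 7 other actin-related proteins, which belong to dynactin and to nuclear complexes, 1 fell in N_28, where 5.75% of all genes did. ACTR6, a chromatin remodelling subunit, fell by 0.49 in N_28 (edgeR adjusted p = 0.0165), a call lost without control library 3 (-0.36), without N_28 library 1 (-0.44) and without all libraries numbered 3. In N_30, ACTR6 differed by -0.07 without passing.

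**Figure D5:**
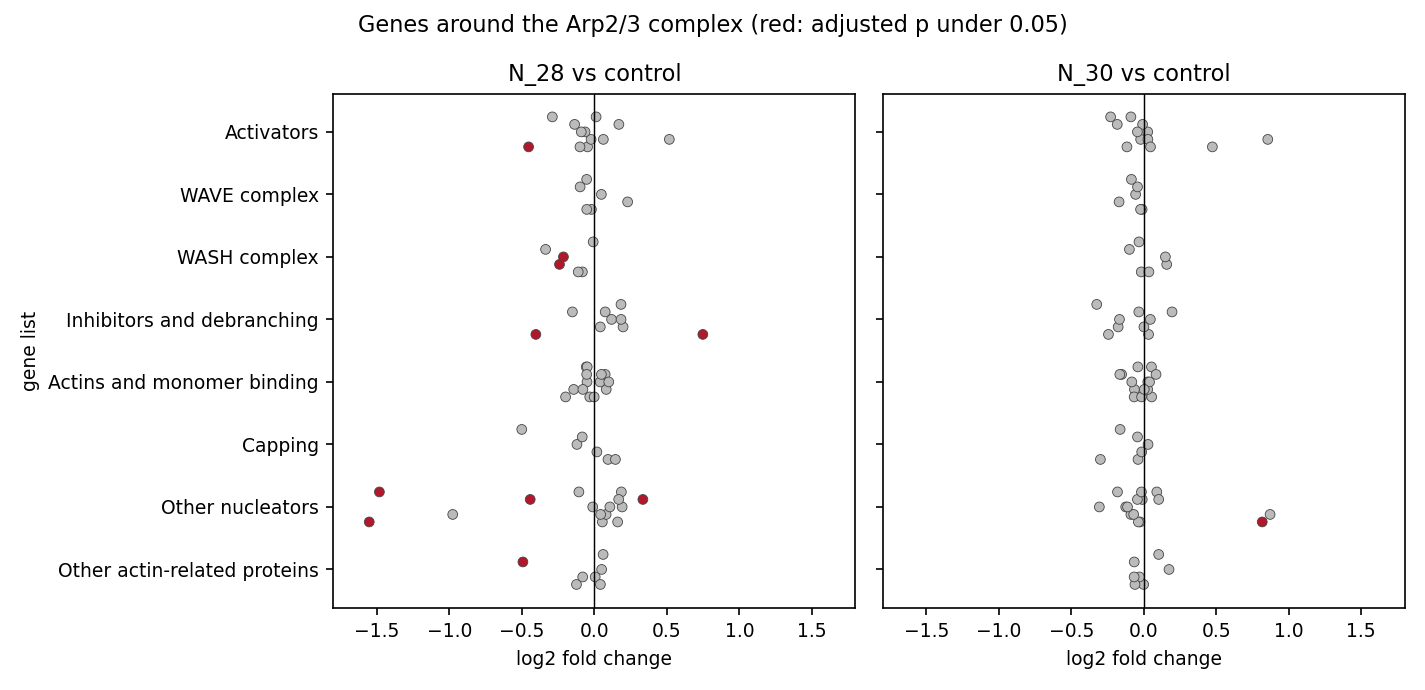
Each point is one tested gene of the 8 lists, placed by its log2 fold change against control in N_28 (left) and N_30 (right), red where the edgeR adjusted p was under 0.05. The 10 called genes in N_28 are spread over 5 lists, and 1 gene, FHOD3, is called in N_30.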

How the data were processed

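The data are whole-number read counts per gene from 9 libraries, which the authors deposited as raw counts without normalization as far as the values show. The submitters' processing notes name a mouse build, while the table holds human Ensembl identifiers. The sources used here do not give the aligner, counting tool, annotation release or strand setting. Symbols came from a gene name table (56434 entries) and from GENCODE release 29 (434 more), which left 3580 unnamed.

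After filterByExpr (minimum count 10) and TMM scaling, the 9 libraries were fitted together in edgeR 4.0.16 (R 4.3.3) by quasi-likelihood, with group as the sole factor. P-values were Benjamini-Hochberg adjusted over 15019 genes and called under 0.05. DESeq2 1.42.0 was an alternative, as were other size factors, no filter, a replicate block, the compared groups alone and leaving out each library. Scaling by total counts, leaving out the libraries numbered 3 and the principal transcript length were added after seeing the data. CPM is scaled to TMM library sizes. The script was tested on simulated data. Within groups, library pairs gave chi-squares per gene from 3.57 to 12.4, beyond sampling noise, and each library counts as 1 replicate.

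The numbers of libraries were taken from their titles. Deviations of same-numbered libraries correlated at 0.158, 0.429 and 0.562 between control and N_30, at -0.0791, 0.232 and 0.312 between control and N_28, and at 0.104, 0.0356 and 0.506 between the knock-downs. No such values are given for libraries of unlike numbers, so pairing by number is not established. The rule for named genes was every member and OPA1, each list gene called against control with up to 4 of lowest adjusted p in the mean comparison, up to 2 well-known others per list, the 5 genes most like ARPC3 and its 5 neighbours on each side. PDAP1, TADA3, SMURF1 and DIAPH3 were named after their values were seen. 1 gene list is not reported here. The members and lists were chosen with earlier results of these data known. The epithelial, mesenchymal, endothelial, leukocyte and hepatocyte marker lists had sums of 386 to 602, 2031 to 2283, 1.22 to 2.70, 5.12 to 7.12 and 1.18 to 3.85 CPM.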

Additional observations from a re-analysis of the deposited data

Results flagged for a closer look

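The effect of knock-down differed between N_28 and N_30 for 13 genes among the members, OPA1, PDAP1, TADA3, SMURF1 and the list genes named by the rule. The test was edgeR's quasi-likelihood test of N_30 against N_28 with Benjamini-Hochberg adjustment. WASF2, FHOD1 and DIAPH3, named above for a DESeq2 call, were not part of this set. In N_30 minus N_28 on the log2 scale, ARPC1B differed by 0.56 (adjusted p = 3.81e-05), TADA3 by 0.33 (adjusted p = 0.00153), SMURF1 by 0.29 (adjusted p = 0.00232) and OPA1 by 0.21 (adjusted p = 0.0265). Of the WASH complex, WASHC2A differed by 0.40 and WASHC2C by 0.36. ARPIN differed by 0.44 (adjusted p = 0.00339) and CORO2B by -0.99 (adjusted p = 3.35e-05). The formin genes DAAM1 (0.43, adjusted p = 0.0264), DAAM2 (1.57), INF2 (-0.38) and FHOD3 (2.37, adjusted p = 4.43e-06) and ACTR6 (0.43, adjusted p = 0.0244) complete the set. The call of DAAM1 was lost in 5 of 13 alternatives (without N_28 library 1 or 3, N_30 library 1 or 2, or all libraries numbered 3; 0.35 to 0.43). That of ACTR6 was lost in 4 (without N_28 library 1 or 2 or N_30 library 2 or 3; 0.38 to 0.44), and that of OPA1 in 7. In this comparison 18.3% of all genes were called. The list genes here were named for a call against control, which shares libraries with this comparison. They therefore do not represent their lists. Over all 75 tested list genes, 9 were called higher in N_30 than in N_28 and 11 lower.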

How the results depend on the processing

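For each comparison, only libraries of the groups compared were left out singly. The count of subunits other than ARPC3 called in N_28 went from 2 to 1 without the low-count filter, without the libraries numbered 3 and without any single control or N_28 library (1 in each), with ARPC5 the call lost. In N_30 it went from 0 to 1 with the replicate block (ARPC1B), and between the knock-downs from 1 to 2 with the replicate block, without the libraries numbered 3 and when single libraries were left out (range 1 to 2). ARPC4 was the gene added. The block changed no other call of a subunit, and PDAP1 in N_28 was called with it (0.19, adjusted p = 0.0276 by edgeR). Over all genes, leaving out single libraries gave 967 to 1309 calls in N_28 (1538 with all), 58 to 180 in N_30 (130 with all), 134 to 322 in the mean of the knock-downs (268 with all) and 1850 to 2444 between the knock-downs (2755 with all). DESeq2 called 257 genes in N_30. Without the filter 523 were called in N_30 and 705 in the mean comparison, and with the replicate block 424 and 616. The causes were not tested.

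Values near 0 that changed sign were all uncalled. The log2 difference of ACTR2 in N_30 became 0.00038 with RLE size factors and 0.017 without the libraries numbered 3. Without those libraries ARPIN in N_30 became -0.056, DAAM1 0.030 and ACTR6 0.031, and PDAP1 between the knock-downs -0.014. With single libraries left out, the N_30 ranges were -0.029 to 0.041 for ACTR2, -0.061 to 0.047 for ACTR3, -0.032 to 0.075 for ARPIN, -0.089 to 0.082 for DAAM1, -0.035 to 0.16 for DAAM2, -0.096 to 0.014 for INF2, -0.19 to 0.066 for ACTR6 and -0.0030 to 0.057 for CTTN. In N_28 they were -0.0035 to 0.047 for ARPC2 and -0.044 to 0.016 for ARPC4. In the mean comparison they were -0.083 to 0.00040 for ARPC1B and -0.024 to 0.084 for ACTR3. Between the knock-downs they were -0.010 to 0.062 for ARPC2, -0.0094 to 0.055 for ARPC3, -0.065 to 0.028 for ARPC5L and -0.013 to 0.058 for PDAP1. Over all single-gene values and alternatives, 1123 kept direction and call, 61 lost a call, 7 gained one and 27 changed sign. The kept values include those that had no call and stayed without one. They also include ARPC3 against control, which has no call and was counted as kept where it moved by less than its SD within groups.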
